A study of Mus musculus with 6 samples.

Results

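Cd44 encodes a cell surface receptor for hyaluronan, and the 8 other genes described here encode RNA-binding proteins that act on variant exons of Cd44 or on the exon choices that set epithelial from mesenchymal cells. The 9 genes were taken by symbol from 23420 gene rows, and all 9 had a row. They were Cd44; Esrp1 and Esrp2, the epithelial splicing regulatory proteins; Khdrbs1 (Sam68) and Khdrbs3 (SLM2, also T-STAR), of the STAR family; Tra2a and Tra2b, serine- and arginine-rich splicing activators; Rbfox2; and Ptbp1, the polypyrimidine tract binding protein. The libraries came from cells sorted out of Meta4 organoids, a mouse epithelial organoid line that the series' design text calls dysplastic. There were 3 libraries of TP-DSCs and 3 libraries of DP-DSCs, both understood as dysplastic stem cells. As known of the study, though not stated in the labels, both populations carry CD133 and CD166, TP-DSCs also carry the CD44v6 form of CD44, and the line derives from mouse stomach. Both groups come from 1 organoid line. The labels call the samples independent without naming separate cultures; the p-values therefore rest on the spread among these 6 libraries alone, which may be technical.

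Cd44 transcripts share constant exons at both ends, and a block of variant exons between them is included or skipped by alternative splicing. Esrp1 and Esrp2 promote variant exon inclusion in epithelial cells and are lost when cells become mesenchymal; Sam68 and the Tra2 proteins are known to promote inclusion of single variant exons; Rbfox2 and Ptbp1 act on many exons, raising or lowering inclusion with the position of their binding. The counts are per gene, so they give the supply of the regulators and the total of Cd44 transcripts, and not the inclusion of any exon.

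In the annotation of mm10 (GENCODE M21), Cd44 lies on the minus strand of chromosome 2 from 102811141 to 102901665. Its longest coding transcript has 5614 bases in 19 exons, of which exons 6 to 15 are the 10 variant exons, v1 to v10 by their order. These add 1245 bases, or 22.2% of that transcript. A transcript with all 10 would therefore be 1.28 times as long as the same transcript with none (0.36 on the log2 scale). Exon v6, which encodes the stretch that the CD44v6 antibody sees, is exon 11 and is held by 4 of the 8 annotated coding transcripts. A match to 5 short motifs known from binding studies of these proteins was sought in the variant exons on the transcript strand: GAAGAA (Tra2a and Tra2b), TAAA (Khdrbs1), GCATG (Rbfox2), TCTT (Ptbp1) and GGTGG (Esrp1 and Esrp2). Exon v6 and the 3 other exons with a match to a motif besides that of Ptbp1 are shown, 5′ to 3′ in DNA letters of the transcript strand, with the letters of any of the 5 motifs in capitals. They lie on the minus strand at chr2:102839358-102839477 (v6), chr2:102834234-102834335 (v8), chr2:102832483-102832572 (v9) and chr2:102831330-102831536 (v10) of mm10, and were read from the GENCODE M21 transcript.
v6: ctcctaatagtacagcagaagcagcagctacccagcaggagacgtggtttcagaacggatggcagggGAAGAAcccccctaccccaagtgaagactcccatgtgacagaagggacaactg
v8: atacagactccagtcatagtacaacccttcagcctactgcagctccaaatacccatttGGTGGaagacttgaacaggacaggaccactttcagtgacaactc
v9: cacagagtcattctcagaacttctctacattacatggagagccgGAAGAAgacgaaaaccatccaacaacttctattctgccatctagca
v10: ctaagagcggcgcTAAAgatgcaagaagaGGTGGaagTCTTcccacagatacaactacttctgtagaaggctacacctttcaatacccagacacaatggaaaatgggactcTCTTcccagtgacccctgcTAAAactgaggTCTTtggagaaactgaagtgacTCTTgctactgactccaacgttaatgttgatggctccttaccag

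GAAGAA stood in v6 and v9, that is 2 of 10 variant exons, against 14.9% of the 109539 internal coding-transcript exons of 90 to 207 bases. GGTGG stood in 2 of 10 (v8 and v10), against 17.9% of those exons, and TAAA in 1 of 10 (v10), against 27.5%. TCTT stood in 4 of 10 (v1, v2, v7 and v10), against 41.2%, and GCATG in 0 of 10, against 12.5%. None of the matches in the printed exons overlap. These are letter matches in exons alone; the introns, where several of these proteins bind, were not analysed here.

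The regulators lie elsewhere in the genome, so no pair of them shares a locus. On the minus strand the annotation places Esrp1 on chromosome 4 from 11331933 to 11386783, Esrp2 on chromosome 8 from 106130319 to 106136974, Khdrbs1 on chromosome 4 from 129703164 to 129742303 and Tra2a on chromosome 6 from 49243924 to 49264033. It also places there Tra2b on chromosome 16 from 22244549 to 22266005 and Rbfox2 on chromosome 15 from 77078990 to 77307004. On the plus strand it places Khdrbs3 on chromosome 15 from 68928420 to 69101211 and Ptbp1 on chromosome 10 from 79854427 to 79864771.

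**Figure D1:**
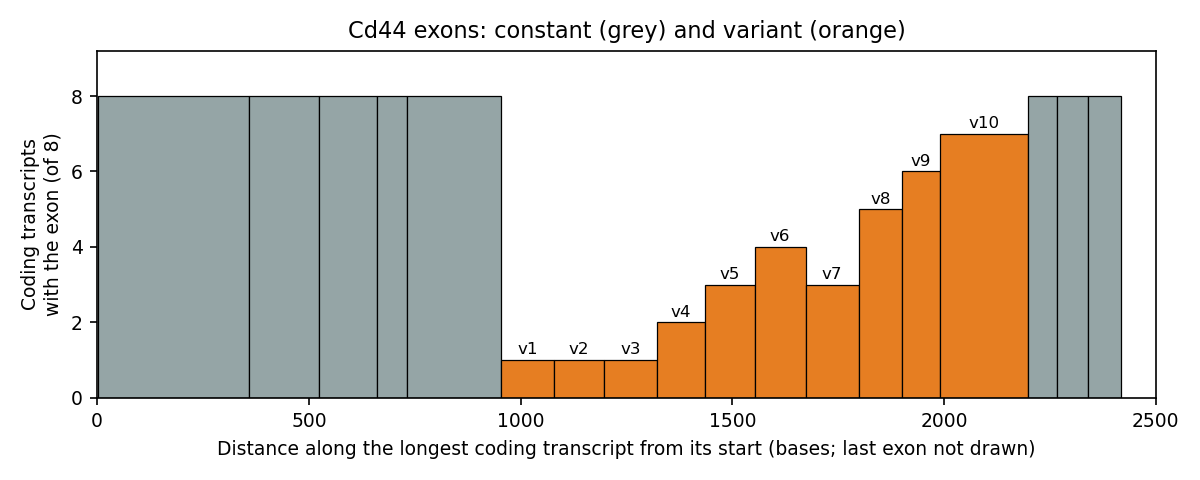
Exons of Cd44 along its longest coding transcript (bases from the start, x axis; the last exon is not drawn) against how many of the 8 annotated coding transcripts hold each exon (y axis), with constant exons in grey and variant exons in orange. The variant exons span 1245 bases; v6 is held by 4 transcripts.

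Reads assigned to genes ranged from 17015581 to 31068454 in TP-DSCs and from 27027919 to 32671039 in DP-DSCs. Genes with at least 1 read numbered 10571 to 10982 in TP-DSCs and 12504 to 14434 in DP-DSCs. Library names start with 4140 (4 libraries, replicates 2 and 3 of each group) or 3840 (2 libraries, replicate 1 of each group); the labels do not say what the number marks. The epithelial label held: summed CPM (reads per 1000000 gene reads) of 6 epithelial markers was 7134 to 8165 in TP-DSCs and 7549.8 to 8884 in DP-DSCs. Of 11 fibroblast and mesenchymal markers, 5 were at 0 in all libraries, Col1a2 and Dcn among them, and 7 in all TP-DSC libraries, Vim and Acta2 included. In DP-DSCs Vim was at 0.153, 2.42 and 0.703 CPM and Acta2 at 0, 0 and 0.333 CPM. Cdh2 was at 0, 0 and 6.24 CPM in TP-DSCs and 0, 14.8 and 3.55 CPM in DP-DSCs. Fn1 made up most of the summed level (461 to 3830 CPM in TP-DSCs and 677 to 2711 CPM in DP-DSCs). Of 8 leukocyte markers, 6 had no reads in TP-DSCs and 1 (Cd3e) had none in any library. The sums were 32.9 to 42.3 CPM in TP-DSCs and 36.6 to 90.9 CPM in DP-DSCs. Cd14 made up most of each sum except the highest, in DP-DSCs replicate 1. There Cd68, a macrophage marker, was at 47.3 CPM and Cd14 at 42.8 CPM. Elsewhere Cd68 was at 0 to 17.3 CPM, highest in TP-DSCs replicate 1. Endothelial and neural sums stayed at or below 13.4 CPM in both groups. In bulk samples, fewer cells of a type and less RNA per cell cannot be told apart.

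Total Cd44 transcripts were abundant in both sorted populations and did not pass the test of a difference. Cd44 was at 504, 446 and 469 CPM in TP-DSCs replicates 1, 2 and 3, against 578, 420.5 and 497 CPM in DP-DSCs replicates 1, 2 and 3. The groups overlapped, and the highest and lowest of the 6 libraries, both DP-DSCs, differed only 1.37-fold, the narrowest range of the 9 genes. The log2 fold change (TP-DSCs over DP-DSCs) was -0.10 ± 0.22 (SE), with a 95% interval from -0.61 to 0.42 (a fold of 0.655 to 1.34). That interval includes 0.36 in either direction, the log2 ratio of transcript lengths with and without the 10 variant exons.

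Across all 9 genes, none had an adjusted p under 0.05 (edgeR, quasi-likelihood test with Benjamini-Hochberg adjustment over all genes), where 0 of 11925 tested genes (0%) passed. At an unadjusted p under 0.05 there were 0 of the 9 genes, against 6.1% of all tested genes. DESeq2 called 0 of the 9 and 93 of 11565 genes (0.804%), or 278 genes (2.16%) and again 0 of the 9 when run on all gene rows. With limma-voom 0 of the 9 and 0 of all genes were called, against 961 (8.06%) at an unadjusted p under 0.05. All 9 passed the filter on low counts. Of the 9 fold changes, 4 were above 0 and 5 below, the median being -0.10, against -0.02 for all tested genes. Only Khdrbs3 had groups that did not overlap, with TP-DSCs higher, a pattern held by 3.87% of tested genes. The opposite pattern, TP-DSCs lower without overlap, was held by 0 of the 9 and by 8.56% of tested genes.

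**Figure D2:**
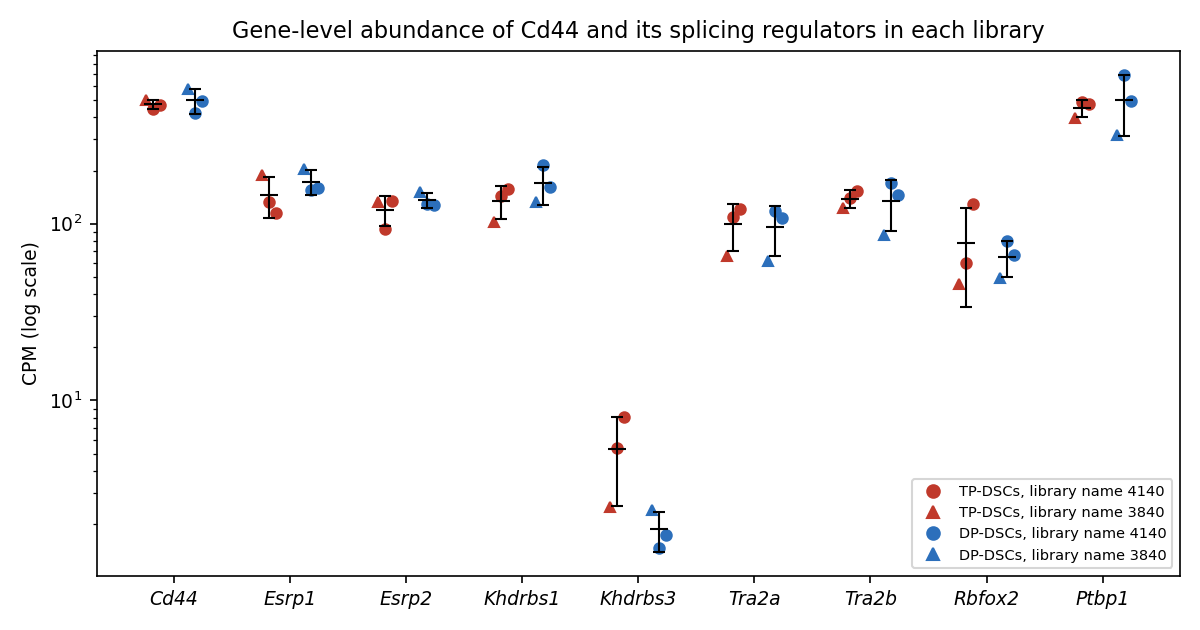
CPM of each gene on a log axis in every library, TP-DSCs (red) left of DP-DSCs (blue), circles for library names with 4140 and triangles for 3840; black bars are the mean and SD of 3 libraries. The groups overlap for 8 genes and separate for Khdrbs3, by 2.48 against 2.39 CPM at their nearest libraries.

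The epithelial splicing regulators were well expressed in both populations. Esrp1, the paralog most tied to Cd44 variant exons, was at 189, 133 and 115 CPM in TP-DSCs and 205, 154 and 159.8 CPM in DP-DSCs. Replicates 2 and 3 of TP-DSCs were below all DP-DSC libraries and replicate 1 was not. The log2 fold change was -0.25 ± 0.28, with a 95% interval from -0.91 to 0.41. Esrp2 was at 133, 93.6 and 134 CPM in TP-DSCs and 151, 129.5 and 128 CPM in DP-DSCs, with a log2 fold change of -0.19 ± 0.23 (interval -0.72 to 0.34). Replicate 2 of TP-DSCs held the lowest Esrp2 value of all libraries and replicates 1 and 3 lay within the range of DP-DSCs. Esrp2 overlaps the genes Nfatc3 and 1810019D21Rik on the other strand, as Ptbp1 overlaps Plppr3, which has no row. The strand setting of the counting is not given in the sources used here. 1810019D21Rik was at 36.9, 86.0 and 15.1 CPM in TP-DSCs and 30.0, 55.5 and 23.6 CPM in DP-DSCs, highest in TP-DSCs replicate 2. Its part in the Esrp2 counts was not tested.

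The STAR family members stood at very different levels. Khdrbs1 (Sam68), which links growth factor signalling to variant exon inclusion, was at 103, 144 and 158 CPM in TP-DSCs and 133, 214 and 161 CPM in DP-DSCs. The groups overlapped, and its unadjusted p of 0.150 in edgeR was the smallest of the 9 (log2 fold change -0.34 ± 0.21, interval -0.84 to 0.16; adjusted p = 0.999). Khdrbs3, a paralog best known from brain and testis, was scarce, with 62, 91 and 249 reads in TP-DSCs and 78, 48 and 47 reads in DP-DSCs. That is 2.48, 5.35 and 8.01 CPM in TP-DSCs, against 2.39, 1.47 and 1.74 CPM in DP-DSCs. All 3 TP-DSC libraries were higher (p = 0.1 in an exact permutation test, two-sided, which is the lowest value 3 against 3 can give), yet the nearest libraries, replicate 1 of each group, had overlapping 95% exact binomial intervals of 1.91 to 3.19 CPM in TP-DSCs and 1.89 to 2.99 CPM in DP-DSCs. Such intervals cover counting error only, since reads without molecular identifiers are not independent molecules. The log2 fold change was 1.44 ± 1.09 with an interval from -1.11 to 3.99, and it did not pass (edgeR adjusted p = 0.999). The difference of mean log2 CPM was 1.996 between the libraries named 4140 and 0.06 in the single pair named 3840. Many scarce genes had no reads in TP-DSCs. Among the 1241 genes with a mean of 1 to 4 CPM in DP-DSCs, the share at 0 reads was 60.0, 67.7 and 68.7% in replicates 1, 2 and 3 of TP-DSCs, against 1.45, 9.35 and 0.806% in replicates 1, 2 and 3 of DP-DSCs. These genes were picked by their DP-DSC level, which itself favours reads there. Khdrbs3 is of that abundance and had reads in every library.

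The Tra2 paralogs, which bind GAA-rich exon sequence, did not pass the test and had fold changes near 0. Tra2a was at 65.8, 109.8 and 122 CPM in TP-DSCs and 61.4, 119 and 108 CPM in DP-DSCs, with a log2 fold change of 0.03 ± 0.29. Tra2b was at 122, 139 and 154 CPM in TP-DSCs and 86.8, 169.6 and 144 CPM in DP-DSCs, with a log2 fold change of 0.05 ± 0.24. In both genes replicate 1 was the lowest of its group and the groups overlapped. The intervals ran from -0.66 to 0.71 for Tra2a and from -0.51 to 0.60 for Tra2b. GENCODE M21 names a pseudogene of Tra2b, and reads of near-identical copies may be split or lost in the counting.

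Rbfox2 and Ptbp1 also overlapped between groups. Rbfox2 was at 45.7, 59.9 and 129 CPM in TP-DSCs and 49.6, 79.6 and 66.3 CPM in DP-DSCs. Replicate 3 of TP-DSCs stood far above the other 5 libraries; the log2 fold change was 0.24 ± 0.38 with it (interval -0.64 to 1.12) and -0.29 without it. That library also had the highest Fn1 (fibronectin), at 3821 CPM, whose part in the result was not tested. Ptbp1 was at 395, 490.2 and 473 CPM in TP-DSCs and 319, 698 and 493 CPM in DP-DSCs. Its widest gap lay within DP-DSCs, and its log2 fold change was -0.15 ± 0.26 (interval -0.76 to 0.45).

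**Figure D3:**
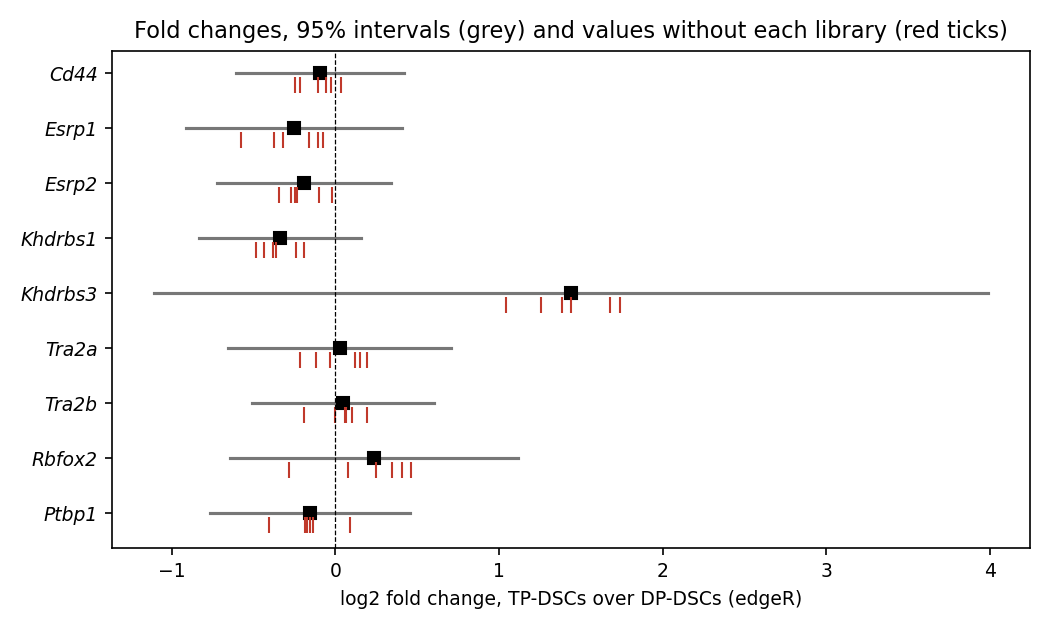
Log2 fold changes of TP-DSCs over DP-DSCs from edgeR (black squares) with 95% intervals (grey lines) and the values after leaving out each library (red ticks), for the 9 genes. Every interval spans 0; the widest, that of Khdrbs3, runs from -1.11 to 3.99.

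Levels between genes were set side by side as CPM per kilobase of the longest coding transcript, over all 6 libraries. Ptbp1 was highest with a mean of 151 (range 101 to 220.2), followed by Cd44 with 86.5 (74.9 to 103), and their ranges met only in replicate 1 of DP-DSCs. Tra2a followed with 54.2 (34.1 to 67.7), below every Cd44 value. Esrp1 (41.3), Khdrbs1 (40.7), Tra2b (40.0) and Esrp2 (36.3) came next, with ranges that overlapped each other and that of Tra2a. Rbfox2 lay apart below them at 10.4 (6.61 to 18.7), and Khdrbs3 was lowest at 1.89 (0.779 to 4.25). Of the paralog pairs, Khdrbs1 and Khdrbs3 did not overlap, while the ranges of Esrp1 and Esrp2 overlapped, as did those of Tra2a and Tra2b.

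Ratios within a library do not depend on its scaling. Per read of Esrp2, Esrp1 had 1.42, 1.42 and 0.854 reads in TP-DSCs and 1.36, 1.19 and 1.25 reads in DP-DSCs, so 1 TP-DSC library had the order of the paralogs turned round. Per read of Tra2b, Tra2a had 0.539, 0.788 and 0.791 reads in TP-DSCs and 0.708, 0.699 and 0.749 reads in DP-DSCs. Per read of Khdrbs3, Khdrbs1 had 41.4, 26.9 and 19.7 reads in TP-DSCs and 55.4, 145.8 and 92.3 reads in DP-DSCs, without overlap between the groups. Of 11 ratios compared (these 3 and each of the 8 regulators to Cd44), the groups separated in 2, both with Khdrbs3 in them (exact two-sided permutation test p = 0.1 for each, Benjamini-Hochberg adjusted p = 0.55 over the 11; the design cannot go below 0.1). Per read of Cd44, Khdrbs3 had 0.00493, 0.0120 and 0.0171 reads in TP-DSCs and 0.00414, 0.00349 and 0.00350 reads in DP-DSCs. Esrp1 had 0.376, 0.299 and 0.245 reads per read of Cd44 in TP-DSCs and 0.355, 0.367 and 0.322 in DP-DSCs, with overlap. The ratio of Khdrbs3 to Cd44 was higher by 2.03 (log2) within the libraries named 4140 and by 0.25 within the pair named 3840.

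The libraries were also compared by the number in their names, a comparison chosen after the values were seen. In 7 of the 9 genes the 4 libraries named 4140 and the 2 named 3840 did not overlap in CPM, as in 23.4% of tested genes. Of these 7, 5 (Khdrbs1, Tra2a, Tra2b, Rbfox2 and Ptbp1) were higher in the 4140 libraries (13.5% of tested genes), and Cd44 and Esrp1 were lower (9.95%). Tra2a was at 108 to 122 CPM in the 4140 libraries and at 61.4 and 65.8 CPM in the 3840 libraries. Esrp1 was at 115 to 159.8 CPM in the 4140 libraries and at 189 and 205 CPM in the 3840 libraries. With TMM-scaled totals Khdrbs1 overlapped and Esrp2 became separate, so 7 genes again separated (23.0% of tested genes), 4 higher (9.23%) and 3 lower (13.8%).

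In an edgeR fit with sort group and name number as terms, the 4140 libraries differed from the 3840 libraries by 0.71 ± 0.18 (log2) for Tra2a and by -0.64 ± 0.17 for Esrp1, with adjusted p-values of 0.329 and 0.369. Neither passed, and 0 of 11925 genes did (1109, or 9.3%, at an unadjusted p under 0.05, Tra2a and Esrp1 among them). The size of this difference exceeded that of the sort groups in 8 of the 9 genes, Khdrbs3 being the exception, and in 7110 of the 11925 tested genes. The sort group sizes here are those of the fit with sort group alone. The 2 sizes also rest on unlike splits, 4 against 2 libraries and 3 against 3, so they are not strictly comparable. The median size over the 9 genes was 0.41, the same as over all tested genes, against 0.19 for the sort groups, where it was 0.30 over all tested genes. What the name number stands for, and its part in these differences, was not tested.

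**Figure D4:**
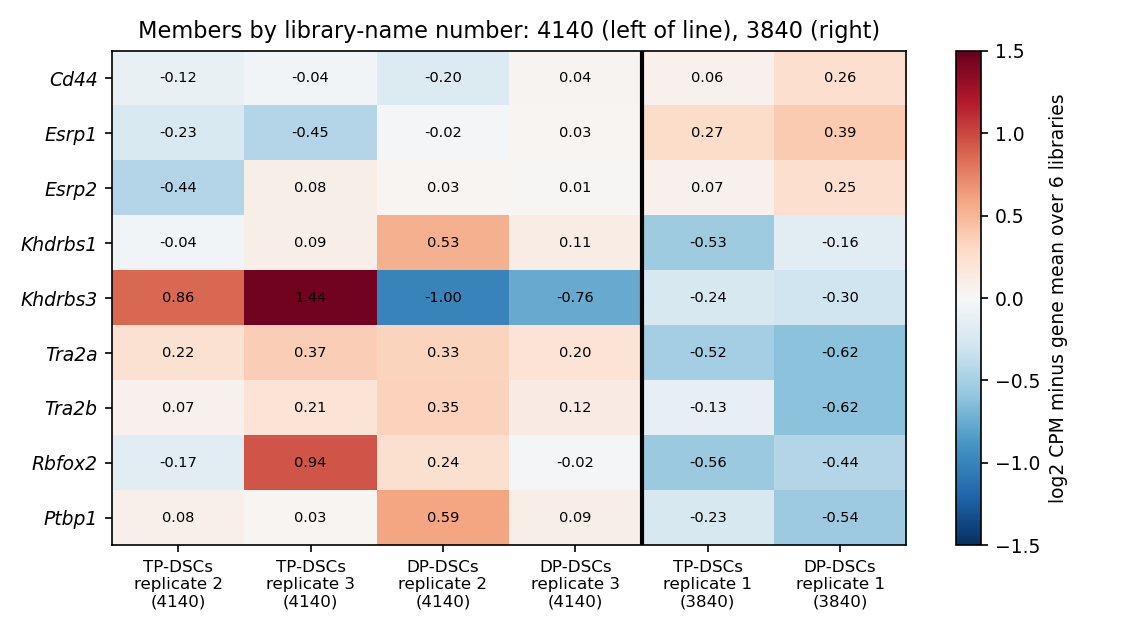
Log2 CPM of each gene minus its mean over the 6 libraries, by library, with the 4140 libraries left of the line and the 3840 libraries right of it. Tra2a, Tra2b, Rbfox2, Ptbp1 and Khdrbs1 lie below their means in both 3840 libraries, where Cd44, Esrp1 and Esrp2 lie above theirs; Khdrbs3 instead follows the sort groups in the 4140 libraries.

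The genes whose log2 CPM most resembled that of Cd44 over the 6 libraries, among 9363 tested genes of at least 10 CPM, were Gphn, Prdx5, Klf11, Smagp and Macrod1, with Pearson's r from 0.97 to 0.98 and Spearman's rho of at least 0.89. They were picked for that likeness, so the values are a description. Of the regulators, Esrp1 and Esrp2 had r of 0.68 and 0.60 with Cd44, which ranked 563 and 837 among the 9363 genes. Ptbp1, Tra2b and Tra2a had r of -0.93, -0.91 and -0.82, which ranked 9298, 9267 and 8964, nearer the opposite end of the order. Khdrbs1 and Rbfox2 had r of -0.63 and -0.50 (ranks 7990 and 7203), and Khdrbs3, which lay under 10 CPM and was not ranked, had r of -0.11. Without the 2 libraries farthest from the median of Cd44 (DP-DSCs replicates 1 and 2) r became 0.76 and 0.80 for Esrp1 and Esrp2. It became -0.58, -0.45 and -0.62 for Ptbp1, Tra2b and Tra2a, and -0.43, -0.33 and -0.77 for Khdrbs1, Rbfox2 and Khdrbs3. The points share their libraries, and with them depth and name number.

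A wider set of 8 lists around Cd44 splicing and function was then set against these genes. The lists held 101 genes, all with a row (Hnrnpll under its older symbol Hnrpll), of which 85 passed the filter and 0 passed the test in either direction (edgeR adjusted p; 2 at an unadjusted p under 0.05, Celf2 and Zeb1). DESeq2 and limma-voom also called 0 of them. Of the 85, 39 fold changes were above and 46 below 0.

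Among 28 other splicing regulators of Cd44 or of epithelial exons, all tested, 18 were above and 10 below 0, with a median log2 fold change of 0.10 against -0.02 for all tested genes. The most abundant were Ybx1 (a cold-shock protein that promotes Cd44 variant exons in human cells) at 1474 ± 146 CPM in TP-DSCs and 1336 ± 170.2 CPM in DP-DSCs (SD, n = 3 each here and below), and the RNA helicase Ddx5 at 817 ± 156 CPM in TP-DSCs and 732 ± 109 CPM in DP-DSCs. Ddx17 stood at 487 ± 172 CPM in TP-DSCs and 469 ± 30.0 CPM in DP-DSCs, and Hnrnpk at 469.5 ± 105 CPM in TP-DSCs and 538 ± 104 CPM in DP-DSCs. In 3 of the 28 the groups did not overlap in CPM, in each case with TP-DSCs higher (3.87% of all tested genes, while 8.56% were lower without overlap). These 3 are named because of this, after their values were seen. On TMM-scaled totals 2 of the 28 separated, both higher, and Mbnl1 overlapped (480 of 11925 tested genes were higher and 1059 lower without overlap). Celf2, which binds GU-rich sequence, was at 41.6, 47.4 and 48.4 CPM in TP-DSCs and 30.4, 31.3 and 29.2 CPM in DP-DSCs (log2 fold change 0.58 ± 0.25). Mbnl1, of the muscleblind family, was at 205, 218 and 283 CPM in TP-DSCs and 200.1, 176 and 183 CPM in DP-DSCs (0.31 ± 0.19). Hnrnpa1 was at 17.9, 7.70 and 23.0 CPM in TP-DSCs and 5.86, 1.44 and 4.55 CPM in DP-DSCs (1.99 ± 0.90); it has many near-identical pseudogene copies, so its count is uncertain.

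Of the paralogs, Ptbp3 stood at 249 ± 15.7 CPM in TP-DSCs and 280.3 ± 30.0 CPM in DP-DSCs, and Ptbp2, the neuronal form, at 14.3, 3.35 and 51.5 CPM in TP-DSCs and 12.7, 11.2 and 14.7 CPM in DP-DSCs. Khdrbs2 and Rbfox1 had no reads in any library. Of the kinases that phosphorylate Sam68 or SR proteins, 9 of 11 were tested, 4 above and 5 below 0 with a median of -0.06; Ptk6 and Fyn had no reads in any library. Mapk3 had a log2 fold change of 0.01 ± 0.36, Clk1 of -0.06 ± 0.22 and Src of -0.59 ± 0.27.

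Among 13 factors that repress or maintain Esrp genes and the epithelial state, 9 were tested, 1 above 0 and 8 below, the median being -0.35. Zeb2, Snai1, Snai2 and Twist1, which drive mesenchymal change, had no reads in any library. Zeb1, a repressor of Esrp1, had 0 reads in TP-DSCs, against 0.675, 2.39 and 0.740 CPM in DP-DSCs. Over the 3 TP-DSC libraries, 0 reads allow up to 0.0411 CPM by counting error alone, a bound that leaves out variation between libraries. Zeb1 did not pass in edgeR (adjusted p = 0.121, from 0.120 to 0.658 over the alternatives). With a mean of 1.27 CPM in DP-DSCs, Zeb1 is itself 1 of the scarce genes given with Khdrbs3. Of those genes, 60.0 to 68.7% had no reads in each TP-DSC library, and they were picked by their DP-DSC level, which itself favours reads there. The cause of the absence of Zeb1 reads in TP-DSCs was not tested. Ovol1, an epithelial repressor of mesenchymal genes, also lay below in every TP-DSC library, at 7.37, 0 and 0 CPM in TP-DSCs against 24.6, 10.4 and 14.9 CPM in DP-DSCs. The abundant epithelial factors overlapped, with Ehf at 180.4 ± 35.4 CPM in TP-DSCs and 220.3 ± 7.71 CPM in DP-DSCs, Elf3 at 165 ± 24.9 CPM in TP-DSCs and 206 ± 47.5 CPM in DP-DSCs, Klf5 at 137 ± 36.2 CPM in TP-DSCs and 136 ± 39.4 CPM in DP-DSCs, and Grhl2, a factor of the epithelial programme, at 57.0 ± 17.6 CPM in TP-DSCs and 63.7 ± 3.87 CPM in DP-DSCs.

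Of 12 genes whose transcripts are spliced by ESRP proteins, all tested, 4 were above 0 and 8 below, the median being -0.05. Among the most abundant, Rps24 had a log2 fold change of 0.18 ± 0.31, Ctnnd1 (p120 catenin) of -0.24 ± 0.32 and Fat1 of 0.11 ± 0.23. Enah, an actin regulator with an epithelial exon, was at 124, 98.1 and 124 CPM in TP-DSCs and 131, 141 and 125 CPM in DP-DSCs. All TP-DSC libraries were lower on library totals, by 124.4 against 125.1 CPM at the nearest, but the groups overlapped on TMM-scaled totals. The log2 fold change of Enah was -0.21 ± 0.19. The values of these 12 genes too are gene totals and say nothing of the exons.

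Around the receptor itself, 9 of 14 ligand and co-receptor genes were tested, 5 above and 4 below 0 with a median of 0.02, which was below 0 on leaving out any library but TP-DSCs replicate 1. Spp1 (osteopontin, a CD44 ligand) ranged from 452 to 2549 CPM in TP-DSCs and from 227 to 1953 CPM in DP-DSCs, and its lowest value in each group was replicate 1. Slc7a11, the cystine transporter that CD44 variant forms stabilise, stood at 244 ± 87.8 CPM in TP-DSCs and 239 ± 103 CPM in DP-DSCs. Its partner chain Slc3a2 was at 201, 166 and 217 CPM in TP-DSCs and 303, 226 and 229 CPM in DP-DSCs (log2 fold change -0.40 ± 0.22). The Slc3a2 groups did not overlap on library totals but did on TMM-scaled totals. Lrp6, a Wnt co-receptor, had a log2 fold change of 0.36 ± 0.22. Has1, which makes hyaluronan, had no reads in any library, and Has2 and Has3 had none in TP-DSCs. In DP-DSCs Has2 was at 0, 0.367 and 0.148 CPM and Has3 at 0, 0.214 and 1.11 CPM. Neither passed the filter on low counts.

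Of the CD44 cleavage enzymes and their inhibitors, 10 of 12 were tested, 3 above 0 and 7 below, the median being -0.30. Adam10, the main sheddase, stood at 384 ± 51.4 CPM in TP-DSCs and 365 ± 26.0 CPM in DP-DSCs. The gamma-secretase subunits Ncstn and Aph1a had log2 fold changes of -0.60 ± 0.30 and -0.31 ± 0.22. Mmp7 ranged from 37.8 to 519 CPM in TP-DSCs and from 39.6 to 1097 CPM in DP-DSCs, highest in replicate 1 of each group. The linkers of CD44 to actin, 6 of 6 tested, had 3 above and 3 below 0 and a median of 0.01, with Ezr (ezrin) at 861 ± 124 CPM in TP-DSCs and 873 ± 131 CPM in DP-DSCs. Nf2, Rdx and Msn had log2 fold changes of 0.17 ± 0.18, 0.05 ± 0.19 and -0.28 ± 0.53. Over the 8 lists, the groups did not overlap in CPM on library totals in 8 of 85 tested genes. Of these 8, 3 were higher and 5 lower in TP-DSCs, against 3.87% and 8.56% of all tested genes. Mbnl1, Enah and Slc3a2 of the 8 overlapped on TMM-scaled totals. Enah, Ovol1 and Zeb1 of the 8 were likewise named after their values were seen.

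**Figure D5:**
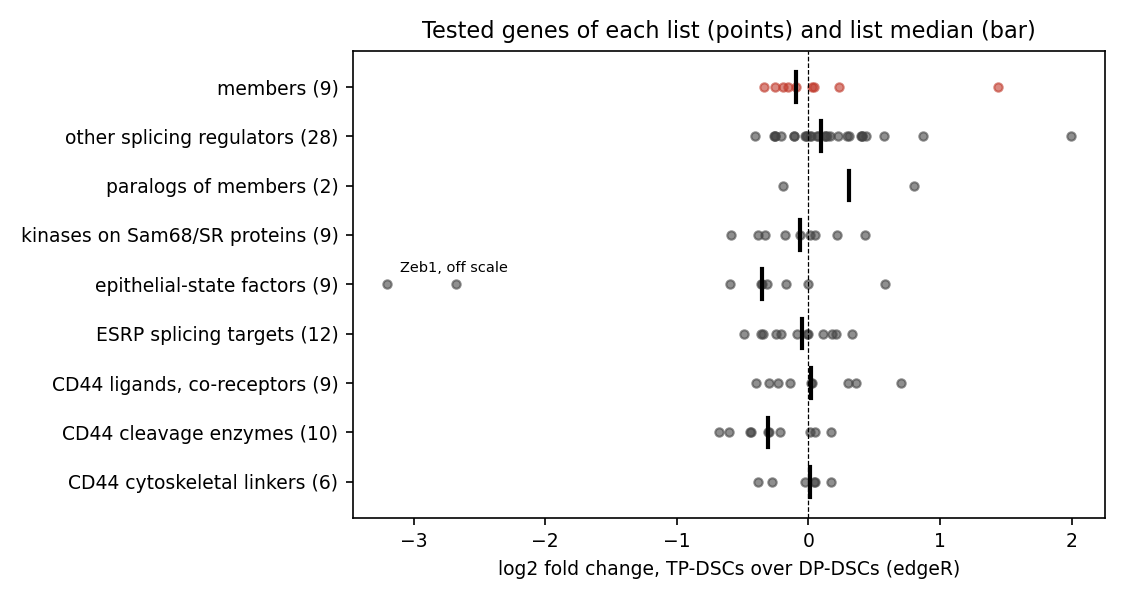
Log2 fold changes of TP-DSCs over DP-DSCs for the tested genes of each list (points; number tested in brackets) with the list median (bar); Zeb1, without reads in TP-DSCs, is drawn at the left edge off its scale. The medians run from -0.35 for the epithelial-state factors to 0.31 for the 2 tested paralogs, whose median is -0.32 without TP-DSCs replicate 3.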

How the data were processed

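The authors deposited raw read counts per gene symbol for 6 libraries, made with a stranded polyA-selecting kit per the labels' protocols. Per the submitters' processing notes, STAR 2.7.3a, Partek, DESeq2 3.5 and mm10 were used; their roles, the annotation and the strand setting are not given in the sources used. Rows for reads in no gene (14.1 to 20.3% of reads) and ambiguous reads (1.09 to 1.86%) were left out. CPM is the count per 1000000 gene reads, without further scaling.

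Groups follow the cell subtype label, and replicates are numbered by order of deposit and pair nothing. Counts were tested in R 4.3.3 with edgeR 4.0.16: filterByExpr (minimum count 10, total 15), TMM scaling, quasi-likelihood F test on all 11925 kept genes, Benjamini-Hochberg at 0.05; the script was tested on simulated data. The SE is the log2 fold change over the square root of F, and 95% intervals use the fit's degrees of freedom. Differences between TP-DSCs and DP-DSCs within a name number use log2 CPM means (prior count 2); those between name numbers come from an edgeR fit with both terms. Alternatives were other scalings, no filter, DESeq2 1.42.0, limma-voom (limma 3.58.1), genes with reads in all libraries, DESeq2 on all gene rows (these last chosen after seeing the data), a block for the name number, the 4140 libraries alone and leaving out each library. Exon sequences and coordinates came from GENCODE M21, whose assembly is that of mm10. The genes, lists and motifs were chosen with earlier results of these data known. By the naming rule, the 9 genes, up to 4 genes per list with the highest mean CPM and the 5 genes most like Cd44 are named; others named were chosen after their values were seen. Some items that the rule names are not reported here.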

Additional observations from a re-analysis of the deposited data

How the results depend on the processing

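The replicate numbers follow deposit order and pair no samples; with the name number, which both groups share, as a block, 0 of the 9 genes and 0 of all genes were called and no member changed direction. None of the 9 genes was called under any of 15 settings; the lowest adjusted p was 0.344, for Esrp1 without TP-DSCs replicate 1. Of 135 values, 125 kept their direction and 10 reversed, and Esrp1, Esrp2, Khdrbs1 and Khdrbs3 never reversed. Over all genes, 0 calls in edgeR became 93 with DESeq2 and 278 with DESeq2 on all gene rows; the cause was not tested. In the 4140 libraries alone, the log2 fold change was -0.028 for Tra2a and -0.16 for Tra2b.

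Leaving out each library gave log2 fold changes from -0.25 to 0.033 for Cd44, -0.40 to 0.091 for Ptbp1, -0.29 to 0.46 for Rbfox2, -0.22 to 0.19 for Tra2a and -0.19 to 0.19 for Tra2b. The genes that kept their sign also moved, from -0.57 (without TP-DSCs replicate 1) to -0.079 for Esrp1, -0.35 to -0.018 for Esrp2, -0.49 to -0.19 for Khdrbs1 and 1.04 to 1.74 for Khdrbs3. The sign turned without DP-DSCs replicate 1 for Cd44, Tra2a and Tra2b, without DP-DSCs replicate 2 for Ptbp1, and without TP-DSCs replicate 3 for Rbfox2, Tra2a and Tra2b; Tra2a also turned without TP-DSCs replicate 2. List medians ranged from -0.46 to -0.23 for cleavage enzymes, -0.11 to 0.03 for ESRP targets, -0.21 to -0.01 for kinases, -0.32 to 0.60 for paralogs and -0.20 to 0.07 for ligands and co-receptors.

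Within the 3840 pair, ratios reversed to 0.067 (log2) for Esrp1 to Esrp2, 0.081 for Esrp1 to Cd44, 0.014 for Esrp2 to Cd44 and 0.51 for Ptbp1 to Cd44. Within the 4140 libraries they reversed to 0.13 for Tra2a to Tra2b and -0.10 for Tra2b to Cd44. Leaving out each library gave ratios from -0.20 to 0.17 for Esrp1 to Esrp2 and -0.14 to 0.14 for Tra2a to Tra2b. Relative to Cd44 the ranges were -0.22 to 0.0014 for Esrp2, -0.53 to 0.047 for Khdrbs1, -0.43 to 0.37 for Ptbp1, -0.23 to 0.57 for Rbfox2, -0.29 to 0.44 for Tra2a and -0.23 to 0.48 for Tra2b. Between the 4140 and 3840 libraries, calls over all genes were 56 with no filter and 0 to 7 on leaving out each library (7 without DP-DSCs replicate 3), and Khdrbs3 ranged from -0.65 to 1.28. With 3 libraries a group, the smallest exact p is 0.1.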
